A study of Homo sapiens with 12 samples.

Results

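The ETS transcription factors that ERK is known to act on or through were followed at the RNA level in HUDEP-2 cells during the first hour of Kit signaling. HUDEP-2 is an immortalized human erythroid precursor line, and Kit is a receptor tyrosine kinase whose ligand is stem cell factor (SCF). The set held 10 genes, ETV4, ETV5, ETV6, ETS1, ETS2, ELK1, ELK3, ELK4, FLI1 and ERF, picked by symbol from the 54628 genes of the count table. All 10 were found in the table and 8 had enough counts to be tested. The 12 libraries formed 4 groups of 3. All cells had grown with SCF, EPO, dexamethasone and doxycycline, were starved of growth factors for 5 h, and were then given PBS or 50 ng/mL SCF for 1 h. Cells carried either a scrambled guide (sgControl) or a guide against an element upstream of the EGR1 promoter (sgEGR1), and the study's methods describe both as used with dCas9-KRAB, an inactive Cas9 fused to a repressor domain, for CRISPR interference. Guides were delivered by lentivirus, so each group is a transduced population and not a clone. The study's methods describe the 3 samples of a group as biological replicates.

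ETS factors share a DNA-binding domain that recognizes a GGAA core, and several of them are nuclear end points of the RAS-ERK cascade that Kit activates. ELK1, ELK3 and ELK4 are the ternary complex factors, which sit with SRF on serum response elements and are switched on by ERK phosphorylation. ETS1 and ETS2 are activators phosphorylated by ERK on a conserved threonine. ETV4 and ETV5 belong to the PEA3 group, whose transcription often follows receptor tyrosine kinase activity. ERF is a repressor that ERK drives out of the nucleus, and ETV6 is a repressor needed in blood formation. FLI1 is best known in blood for its role in megakaryocytes. Phosphorylation was not measured here, so the values below concern RNA abundance only. In bulk RNA, a change in cell number of one kind and a change in RNA per cell cannot be told apart.

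Sequence upstream of the annotated starts was read from RefSeq (GRCh38.p14), which gave 10 windows of 250 bases for 6 of the 10 genes (ELK1, ELK3, ELK4, ERF, ETS2 and ETV6). ETV4, ETV5, ETS1 and FLI1 had no entry. Motifs were searched on both strands as exact letters, and the matches did not overlap each other. The EGR-like motif GCGTGGG occurred in 6.19% of all 35116 windows of that length. Among these genes it was present in 1 of the 3 windows of ERF, 1 of the 2 windows of ETS2 and the only window of ETV6. Shares are per window, and a gene with more starts has more windows. The ETS motif CCGGAAGT occurred in 3.42% of all windows and was present in 1 of the 10 windows, that of ELK4. The AP-1 motif TGANTCA (6.57% of windows), the CRE motif TGACGTCA (1.65%) and the CArG box bound by SRF (1.16%) were not found in the 10 windows. A match is a description of the letters and not of binding. All 4 matches are shown in 30 bases each, in the direction of transcription. Capitals mark the motif, which for ETV6 reads in the opposite orientation. The EGR-like motif was present for ERF and ETS2, whose RNA rose, and for ETV6, whose RNA did not pass the test. Whether a motif bears on a response was not tested.
ERF chr19:42255168-42255197, minus strand: ccggccgggggGCGTGGGcgtcccggcccc
ETS2 chr21:38805899-38805928, plus strand: ctgaagagcgcgccGCGTGGGggacggccc
ETV6 chr12:11649511-11649540, plus strand: gcagccgcggcCCCACGCggccccgctacc
ELK4 chr1:205632015-205632044, minus strand: cagcccctcccCCGGAAGTgacgtgtagcg
The motif began 58 bases before the outermost of 3 starts listed for ERF, 16 bases before the second of 2 starts listed for ETS2, 152 bases before that of ETV6 and 22 bases before that of ELK4. The ETS2 match lies inside the annotated ETS2 gene and may fall in an exon of a longer ETS2 transcript, since the window belongs to the start further into the gene. The region upstream of ERF is given at greater length, as its match lies outside the annotated ERF gene and outside every annotated exon. These 246 bases end 4 bases short of the start, where an exon of a neighboring gene begins.
ERF chr19:42255133-42255378, minus strand: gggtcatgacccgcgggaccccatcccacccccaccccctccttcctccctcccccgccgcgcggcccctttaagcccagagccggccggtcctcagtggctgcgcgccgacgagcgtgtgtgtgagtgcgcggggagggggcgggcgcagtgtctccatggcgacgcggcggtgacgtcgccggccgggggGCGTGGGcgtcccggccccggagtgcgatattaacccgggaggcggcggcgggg

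The libraries held 23.5 to 32.0 megacounts (M) of estimated counts. Levels are counts per megacount (CPM) after the totals were scaled by TMM, a factor that removes differences in RNA composition. Erythroid identity was checked with 9 markers, of which 8 exceeded 3 counts in every library, with a summed level of 6018 to 6778 CPM. TFRC alone stood at 3270 to 3763 CPM. The remaining marker, HBG1, had 0 counts in sgControl PBS replicate 1 and at least 1140 in every other library. Of 6 megakaryocyte markers, PF4, GP9, PPBP and VWF were at 0 in all libraries. The other 2 exceeded 3 counts in every library, ITGA2B at 12.01 to 35.2 CPM and GP1BA at 0.310 to 0.900 CPM. The list summed to 12.9 to 35.6 CPM. The summed level of 5 lymphoid markers was at most 0.597 CPM and that of 5 myeloid markers at most 0.719 CPM. EGR1, the gene the guide was aimed at, stood at 10.9, 5.99 and 7.45 CPM (replicates 1, 2 and 3) in sgControl PBS and at 2.04, 1.12 and 0.977 CPM in sgEGR1 PBS. After SCF it reached 208, 239 and 171 CPM in sgControl cells and 40.4, 57.4 and 204 CPM in sgEGR1 cells. The third value of sgEGR1 SCF lies within the sgControl range, so that sample is called the library labelled sgEGR1 SCF replicate 3, and results that rest on it are also given without it. The marker HBG2 also lay within the sgControl range there, at 38.8 CPM (27.9 to 45.6 in sgControl, 50.4 to 92.7 in the other sgEGR1 libraries). HBG1, at 64.6 CPM, lay above sgControl (at most 61.4) and below the other sgEGR1 libraries (at least 84.7). What sets this library apart was not tested. Replicate 1 of every group also stood apart from replicates 2 and 3, as described below for each ETS gene.

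To compare levels between genes, CPM was divided by the length in kb of all annotated exons of the gene (GENCODE v44, GRCh38). On this scale of CPM per kb, averaged over the 12 libraries, ELK1 was the most abundant of the 10 at 31.9 ± 2.09 (SD, n = 12), followed by the repressor ERF at 20.8 ± 4.20. ETS2 stood at 7.77 ± 2.85 and ELK4 at 5.56 ± 0.400, and the ranges of this pair overlapped. After PBS the pair lay within the spread between replicates, and after SCF the mean of ETS2 was the higher one. ETS2 and ELK4 stood at 5.29 ± 0.834 and 5.35 ± 0.445 (SD, n = 3) in sgControl PBS and at 10.1 ± 1.65 and 5.86 ± 0.424 in sgControl SCF. In sgEGR1 cells they stood at 5.40 ± 1.15 and 5.47 ± 0.148 after PBS and at 10.3 ± 2.17 and 5.57 ± 0.515 after SCF. ETV6 followed at 2.58 ± 0.164 and ELK3 at 1.08 ± 0.133, each with a range clear of its neighbors. The PEA3 factors were the lowest of those tested, with ETV5 at 0.455 ± 0.145 and ETV4 at 0.380 ± 0.116, whose ranges overlapped. Among the ternary complex factors, ELK1 was 29.6 times as abundant per kb as ELK3.

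**Figure D1:**
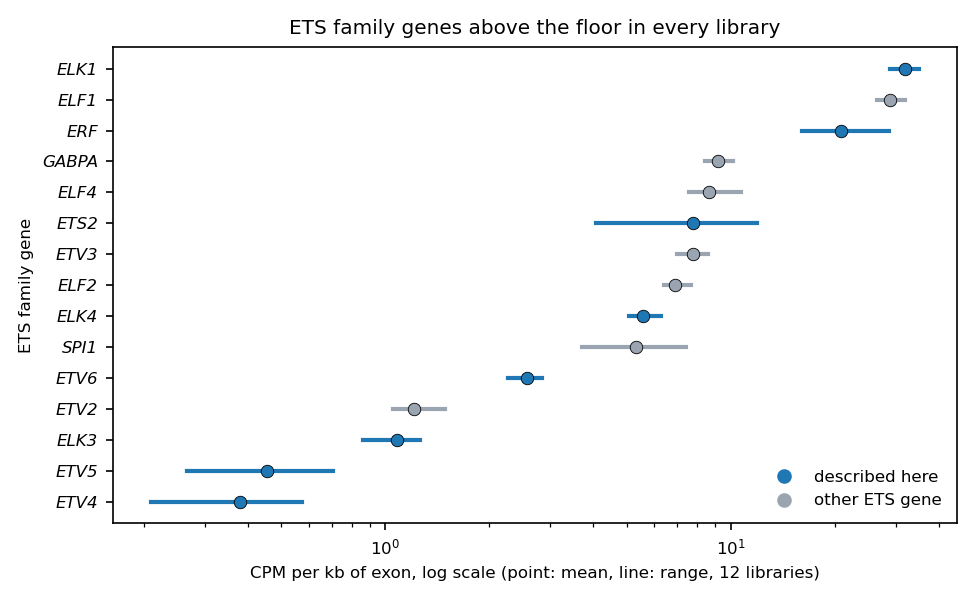
Level of the 15 ETS family genes above 3 counts in every library, in CPM per kb of exon on a log axis (point, mean; line, range over 12 libraries); the 8 genes described here are in blue and other ETS genes in grey. ELK1 and ERF lie among the 3 most abundant, ETS2 has the widest range of the middle genes, and ETV4 and ETV5 are lowest.

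ETS1 and FLI1 were at or near 0. FLI1, on chromosome 11, had 0 counts in all 12 libraries, which allows a level of at most 0.128 CPM in the shallowest library by counting error alone. ETS1, which lies near FLI1 on chromosome 11, had 0 counts in all 6 PBS libraries. After SCF, ETS1 had 0, 0 and 3 counts in sgControl and 7, 7 and 4 counts in sgEGR1. These counts are too few for the filter that edgeR applies, and with no filter on low counts the average SCF response of ETS1 had an adjusted p of 0.147 by edgeR's quasi-likelihood test. The table also lists HRAS, a RAS gene used by most cells, at no more than 3 counts in any library, so a listing near 0 is a value of this table and was not checked against reads.

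The RNA of ETS2 and ERF rose with SCF. The average response over both guide groups was 1.91-fold for ETS2 and 1.35-fold for ERF, and no other tested ETS gene passed the test. With 8 of the 10 genes tested, 2 were called higher and 0 lower, against 9.03% of all 15492 genes tested called in either direction and 5.58% called higher. Calls rest on edgeR's quasi-likelihood test with Benjamini-Hochberg adjustment over all genes tested, at a threshold of 0.05. Within a single guide group, 1 of 8 was called in sgControl (2.89% of all genes) and 1 of 8 in sgEGR1 (2.59%), and in both groups this was ETS2. The median log2 fold change of the 8 was 0.04 for the average response, beside -0.0045 over all genes. ETS2 and ERF were also the 2 genes of the 8 with every SCF library above every PBS library in both guide groups, a pattern held by 5.57% of all genes.

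ETS2 (ENSG00000157557) lies on chromosome 21 from 38805183 to 38824955 on the plus strand. Its level in sgControl cells was 21.7, 27.3 and 29.9 CPM after PBS and 41.2, 57.1 and 52.6 CPM after SCF. In sgEGR1 cells it was 20.3, 29.9 and 30.5 CPM after PBS and 38.9, 59.1 and 55.5 CPM after SCF. The SCF and PBS groups did not overlap with either guide, and replicate 1 was the lowest library in each of the 4 groups. The log2 fold change was 0.94 ± 0.194 (SE, edgeR adjusted p = 0.024) in sgControl and 0.93 ± 0.194 (edgeR adjusted p = 0.0262) in sgEGR1. Averaged over both, it was 0.93 ± 0.137, with a 95% interval of 0.63 to 1.23 and an edgeR adjusted p of 0.00129. A two-sided exact permutation test of log2(CPM + 0.5) within guide gave p = 0.005, the smallest its 400 arrangements can give. Within a single guide group 3 libraries against 3 cannot give less than p = 0.1 by exact permutation, and ETS2 and ERF had that value in both. The call within one guide group depended on single libraries. With the library labelled sgEGR1 SCF replicate 3 left out, the ETS2 response in sgEGR1 was 0.87 (edgeR adjusted p = 0.101) and the average response 0.90 (edgeR adjusted p = 0.00489). In sgControl the call was lost when any of PBS replicates 1, 2 and 3 or SCF replicates 2 and 3 was left out, with log2 fold changes of 0.82 to 1.04 and an edgeR adjusted p of at most 0.0956. In sgEGR1 it was lost without any of PBS replicates 1, 2 and 3 or SCF replicates 2 and 3, with log2 fold changes of 0.76 to 1.03 and an edgeR adjusted p of at most 0.11. An antisense lncRNA shares 2.25% of the exon bases of ETS2, and counts of overlapping genes are uncertain because the use of strand in counting was not stated.

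ERF (ENSG00000105722) lies on chromosome 19 from 42247569 to 42255128 on the minus strand. Its level in sgControl cells was 66.0, 54.7 and 53.3 CPM after PBS and 93.5, 73.0 and 68.3 CPM after SCF. In sgEGR1 cells the repressor stood at 66.6, 54.1 and 52.5 CPM after PBS and at 91.2, 73.9 and 69.1 CPM after SCF. Here too SCF and PBS did not overlap with either guide, but replicate 1 was the highest library in each group, the reverse of ETS2. The log2 fold change averaged over both guides was 0.43 ± 0.0999 (SE), with a 95% interval of 0.22 to 0.65, an edgeR adjusted p of 0.0173 and p = 0.005 by the exact permutation test. In single guide groups it was 0.43 in sgControl (edgeR adjusted p = 0.15) and 0.44 in sgEGR1 (edgeR adjusted p = 0.144), so neither was called. With DESeq2 both were called, at an adjusted p of 0.0448 and 0.0432. When the library labelled sgEGR1 SCF replicate 3 was dropped, the average was 0.48 (edgeR adjusted p = 0.0186), whereas without sgEGR1 PBS replicate 3 it was 0.40 and missed the threshold (edgeR adjusted p = 0.0505). A protein-coding gene on the same strand, ENSG00000268643, shares 5.54% of the exon bases of ERF.

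**Figure D2:**
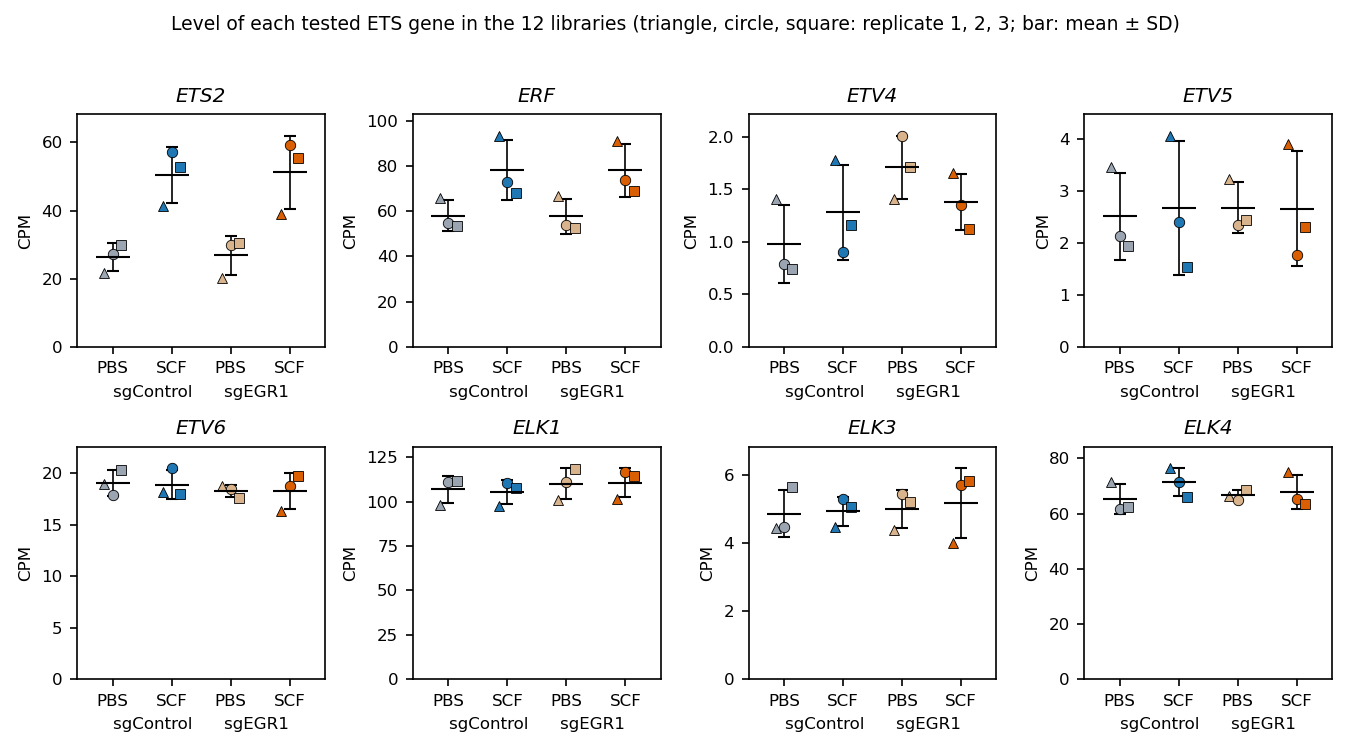
Level in CPM (y axis, from 0) of each tested ETS gene in the 4 groups on the x axis; triangles, circles and squares are replicates 1, 2 and 3, and bars show mean ± SD (n = 3). ETS2 and ERF are higher after SCF than after PBS with both guides, with replicate 1 lowest for ETS2 and highest for ERF, while the other 6 genes overlap between treatments.

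The ternary complex factors, whose activity ERK controls through phosphorylation, did not pass the test at the RNA level. ELK1 was between 97.8 and 119 CPM in all 12 libraries, and its average SCF response was -0.01 on the log2 scale with a 95% interval of -0.13 to 0.11. The interval for ELK4, which ranged from 61.8 to 76.5 CPM, was -0.04 to 0.20 around 0.08. ELK3 was the least abundant of this group, at 4.00 to 5.84 CPM, and its interval was -0.22 to 0.30 around 0.04. As fold changes, these intervals run from 0.916 to 1.08 for ELK1, from 0.972 to 1.15 for ELK4 and from 0.858 to 1.23 for ELK3. The estimate for ERF, 0.43, lies above all 3 intervals.

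The repressor ETV6 ranged from 16.4 to 20.5 CPM, and its average SCF response was -0.01 with a 95% interval of -0.14 to 0.13. The PEA3 factors had the widest intervals. ETV4 stood at 1.41, 0.788 and 0.737 CPM in sgControl PBS and at 1.78, 0.900 and 1.16 CPM in sgControl SCF. In sgEGR1 cells ETV4 stood at 1.41, 2.01 and 1.71 CPM after PBS and at 1.66, 1.35 and 1.12 CPM after SCF. All 4 groups overlapped in pairs by treatment and by guide. ETV5 ranged from 1.54 to 4.07 CPM, with replicate 1 the highest library of each group. The 95% interval of the average SCF response was -0.45 to 0.52 for ETV4 and -0.54 to 0.61 for ETV5, so both intervals include a change as large as that of ERF. ETV4 shares 1.93% of its exon bases with DHX8 on the other strand, and ETV5 shares 2.84% with DGKG on the same strand.

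**Figure D3:**
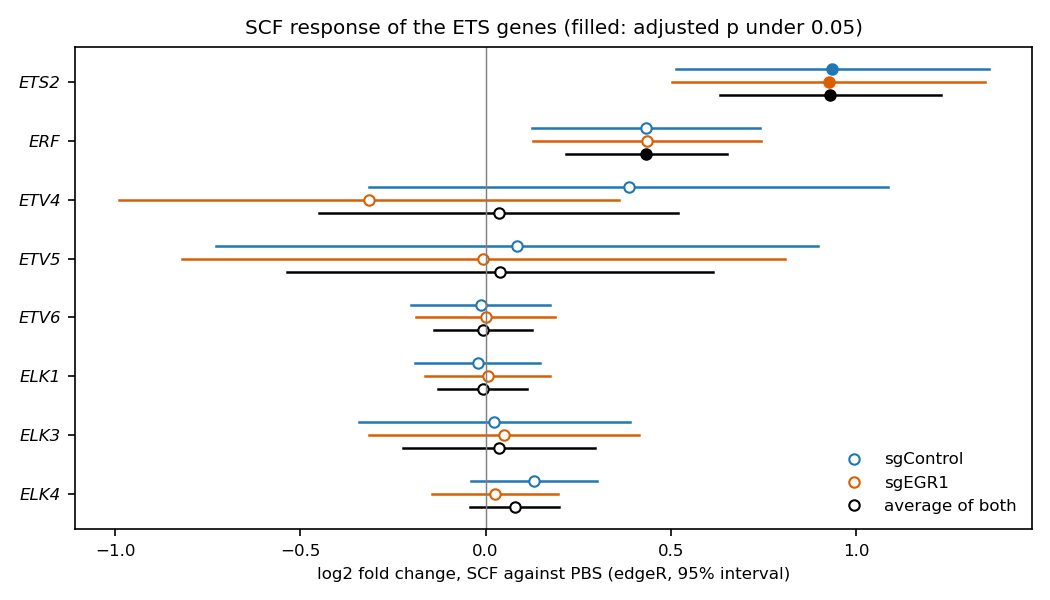
Log2 fold change of SCF against PBS (x axis, edgeR) for the 8 tested ETS genes (y axis) in sgControl, in sgEGR1 and averaged over both; lines are 95% intervals and filled points have an adjusted p under 0.05. ETS2 lies near 0.93 in all 3 estimates and ERF near 0.43, with the intervals of ETV4 and ETV5 the widest.

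Reducing EGR1 was meant to show which Kit responses need it, so the responses were compared between guides. EGR1 itself was not called between guides after SCF, at -1.03 on the log2 scale (edgeR adjusted p = 0.9998). Its SCF response was 4.66 in sgControl and 6.22 in sgEGR1, an interaction of 1.56 that was not called. Dropping sgEGR1 SCF replicate 3 moved the difference after SCF to -2.08 (edgeR adjusted p = 0.0189) and the interaction to 0.51. EGR1 was thus still induced in sgEGR1 cells, and whether the ETS responses need it was not tested. No response of an ETS gene was called different in the interaction, the SCF response in sgEGR1 minus that in sgControl, where 0 of 8 genes passed in edgeR (0.0% of all genes), 0 of 8 in DESeq2 and 0 of 8 at an unadjusted p under 0.05 in either (1.98% of all genes in edgeR). For ETS2 the difference was -0.01 with a 95% interval of -0.60 to 0.58, and for ERF it was 0.0046 with an interval of -0.43 to 0.44. With that odd library of sgEGR1 SCF (replicate 3) left out, these differences were -0.07 for ETS2 and 0.09 for ERF. On the fold scale the interval for ERF spans 0.742 to 1.36 times the sgControl response, and that for ETS2 is wider. ETV4 had the largest estimated difference of the 8, at -0.70 with an interval of -1.67 to 0.27. That value was -0.57 without the library labelled sgEGR1 SCF replicate 3, -1.06 without sgControl PBS replicate 1 and -0.39 without sgControl SCF replicate 1, and none of these passed the test.

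Between guides at the same treatment, 0 of 8 genes were called after PBS and 0 of 8 after SCF by edgeR (0.0% of all genes in both comparisons), and DESeq2 likewise called 0 of the 8. At an unadjusted p under 0.05, both tools had 1 of 8 genes after PBS and 0 after SCF (4.62% and 2.33% of all genes in edgeR). That gene was ETV4, with a log2 difference of 0.80 ± 0.32 (SE, sgEGR1 minus sgControl, edgeR adjusted p = 0.999). Its sgEGR1 PBS libraries (1.41 to 2.01 CPM) overlapped those of sgControl PBS (0.737 to 1.41 CPM) only through replicate 1 of each guide. Across 21 alternative settings the difference stayed positive, from 0.63 to 1.28, and was called in 0 of them. For ETS2 the difference was 0.03 after PBS and 0.03 after SCF, and for ERF it was -0.01 and -0.0042. The differences after SCF were -0.04 for ETS2 and 0.07 for ERF when sgEGR1 SCF replicate 3 was dropped. In a fit blocked on replicate number, which takes the numbers to pair the libraries of both guides, 0 of 8 genes were called after either treatment.

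Replicate 1 differed from replicates 2 and 3 for most of these genes. In a fit with a term for replicate 1, edgeR called 6 of the 8, 3 higher and 3 lower in replicate 1, where 26.6% of all genes were called. ETS2 was lower in replicate 1 by -0.48 ± 0.0448 on the log2 scale (edgeR adjusted p = 6.78e-06), ELK3 by -0.30 and ELK1 by -0.18. ETV5 was higher by 0.80 ± 0.141 (edgeR adjusted p = 0.00101), ERF by 0.34 and ELK4 by 0.14. ETV4 (0.43, edgeR adjusted p = 0.137) and ETV6 (-0.07) were not called. The labels give no date or batch for replicate 1, and what sets it apart was not tested. Dividing SCF by PBS libraries of the same number and guide gave 1.76-fold to 2.09-fold for ETS2 and 1.28-fold to 1.42-fold for ERF. With the term for replicate 1 in the fit, ETS2 and ERF were both called in each guide group, with log2 fold changes of 0.93 and 0.43 and an edgeR adjusted p of at most 5.18e-05.

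**Figure D4:**
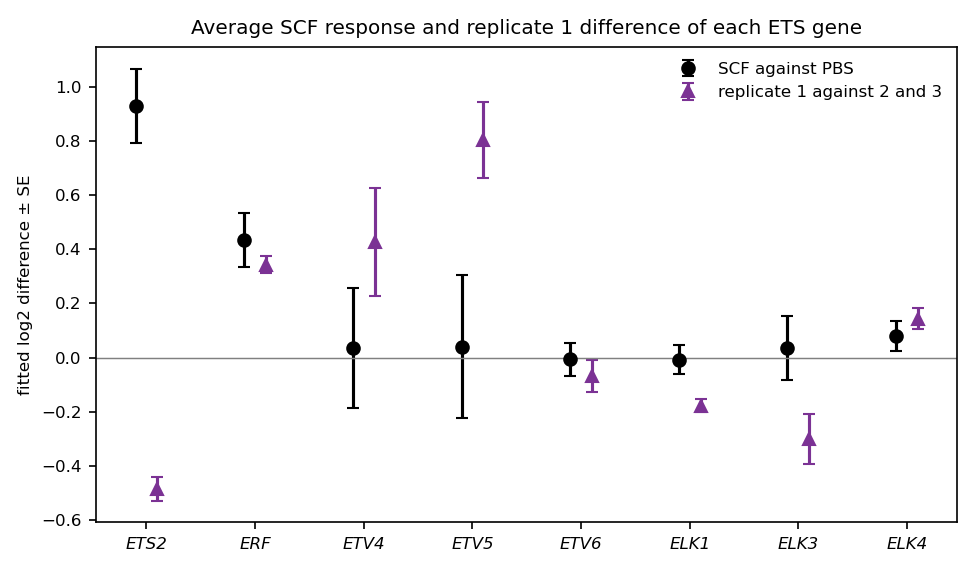
Fitted log2 difference ± SE (y axis) for each tested ETS gene (x axis), for SCF against PBS averaged over both guides (circles) and for replicate 1 against replicates 2 and 3 (triangles). ETS2 is raised by SCF and lower in replicate 1, ERF is higher in both, and ETV5 has the largest difference of replicate 1 at 0.80.

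Set against the whole ETS family of 28 genes, of which 7 had 0 counts in every library, the 10 genes made up 48.0% ± 0.457 (SD, n = 3) of the summed CPM per kb in sgControl PBS and 53.2% ± 1.08 in sgControl SCF. In sgEGR1 cells the share was 48.5% ± 0.589 after PBS and 53.7% ± 1.29 after SCF. ETS2 and ERF took larger shares of the family after SCF. The share of ETS2 went from 3.95% to 7.13% in sgControl and from 3.99% to 7.19% in sgEGR1, and that of ERF from 13.2% to 16.9% and from 13.1% to 16.7%. When the library labelled sgEGR1 SCF replicate 3 was dropped, the other two libraries of that group averaged 54.1% for the 10 genes, 6.89% for ETS2 and 17.7% for ERF. Among the other 18 ETS genes, 8 were tested, 0 were called higher and 1 was called lower in the average response, where 5.58% of all genes were called higher and 3.45% lower. This was ELF1, an activator of blood cell genes, at -0.14 ± 0.0336 (SE, edgeR adjusted p = 0.0184). The median log2 fold change of those 8 was -0.08.

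The upstream cascade was nearly flat at the RNA level. Of 18 genes from KIT to the RSK kinases, 17 were tested, 0 were higher and 1 was lower, beside 5.58% and 3.45% of all genes, with a median of -0.03. The one called was SOS2, a RAS exchange factor, at -0.15 (edgeR adjusted p = 0.0394). Among 16 partners and regulators of ETS factors, 2 were higher and 2 lower, beside the same 5.58% and 3.45% of all genes. SRF, the partner of the ternary complex factors, rose by 1.08 ± 0.0628 (SE, edgeR adjusted p = 1.61e-06), and GATA2, an early erythroid GATA factor, rose by 1.23 ± 0.152 (edgeR adjusted p = 0.00039). MRTFA, the other class of SRF cofactor, was lower at -0.20 (edgeR adjusted p = 0.0213) and the corepressor SIN3A at -0.12 (edgeR adjusted p = 0.028). The median of this list was -0.05.

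Genes known to respond to the ternary complex factors rose while the factors' own RNA did not pass the test. EGR3, 1 of the 9 such targets, passed the filter on low counts only through its SCF libraries and is left out of the count. Of the other 8, 7 were called higher, beside 5.58% of all genes, with a median response of 2.83-fold. By smallest p these were led by MCL1 (log2 fold change 0.93), SRF (1.08), IER2 (1.33) and EGR2 (2.40). SRF is on both lists. FOS and EGR3 are named because of their values. FOS was the one not called (2.69, edgeR adjusted p = 0.0738), with 146, 15.5 and 12.01 CPM in sgControl SCF against 21.5, 5.24 and 5.20 CPM in sgControl PBS, so replicate 1 stood far above the others. EGR3 had 0 counts in all PBS libraries. After SCF it had 28, 10 and 13 counts in sgControl and 27, 17 and 12 counts in sgEGR1. No fold change is given for it, since it passed the filter only through the group where it is higher. Of 8 genes used as readouts of ERK output, 6 were tested and 4 were called higher, beside 5.58% of all genes. DUSP6, a phosphatase that inactivates ERK, rose by 2.42, SPRY4 by 2.12, SPRY2 by 1.21 and CCND1 by 0.79, and the median was 1.00. PHLDA1 and EPHA4 were not called, and DUSP4 and EPHA2 had no more than 3 counts in any library. All lists were chosen with earlier results of these data known.

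**Figure D5:**
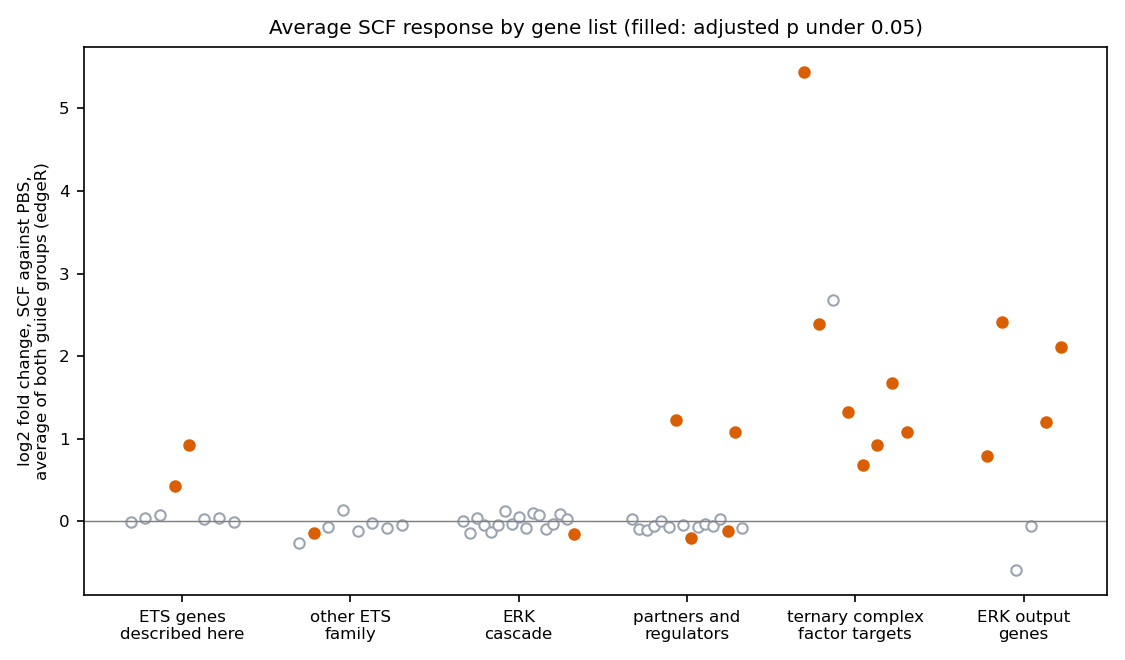
Average SCF response over both guides (y axis, log2 fold change, edgeR) of each tested gene, grouped by list on the x axis; filled points have an adjusted p under 0.05, and EGR3 is not drawn because its PBS libraries are all at 0. ETS2 and ERF stand above the other ETS genes, the cascade lies near 0, and most targets of the ternary complex factors and ERK output genes are higher.

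The genes whose profile over the 12 libraries lay closest to that of each responding ETS gene were found by the root mean square difference of log2(CPM + 0.5), each gene centered on its mean. For ETS2 they were AEN, a p53-induced nuclease (0.148), MYADM, a membrane protein (0.149), and CISH, a feedback inhibitor of cytokine signaling (0.158), whose average SCF responses were 1.00, 0.97 and 0.84. For ERF they were SLC3A2, an amino acid transporter subunit (0.0619), AP5B1, an adaptor complex subunit (0.0639), and KLHL42, an E3 ligase adaptor (0.0692), with responses of 0.37, 0.36 and 0.38, of which that of KLHL42 was not called (edgeR adjusted p = 0.058).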

How the data were processed

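RNA-seq was available for 12 libraries in 4 groups of 3, grouped by the labels' genotype and treatment. Per the study's methods, HISAT placed the reads on hg38 and StringTie summarized them. The authors deposited the resulting estimated counts for each gene, not scaled for depth or length. Annotation release, multi-mapping and strand use in counting were not stated, and the labels and the study's methods name different library kits. The columns carry a guide code that was taken as sgEGR1, the one construct in the labels besides the control. Here 0 deposited values were not whole, and no column was left without a sample (0 columns).

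The filterByExpr function of edgeR 4.0.16 (R 4.3.3) kept 15492 of 54628 genes (27654 with at least 1 count). TMM scaling and a quasi-likelihood fit with 1 coefficient per group over all 12 libraries followed, with Benjamini-Hochberg adjustment over all genes tested. DESeq2 1.42.0 was an alternative. Standard errors were derived from the F statistic, and 95% intervals are per gene. The code was tested on simulated data. Totals of 23.5 to 32.0 megacounts and a floor of 3 counts set the precision, and intervals and floors cover counting error only where no replicates enter. Levels per kb used GENCODE v44 exon lengths. Alternatives were other scaling, filters, a replicate block, a term for replicate 1, replicates 2 and 3 only, only the libraries compared, and each library left out. Residuals of same-numbered libraries of the 2 guides correlated at 0.103 to 0.232 after PBS and at 0.102 to 0.269 after SCF, highest for replicate 1. Replicates 2 and 3 gave 0.103 and 0.119 after PBS and 0.102 and 0.126 after SCF. Replicate 2 of one guide against replicate 3 of the other gave 0.032 to 0.057. The labels name no shared batch, so pairing by number between guides is an assumption of the replicate block. The 10 genes are all reported. From the other lists, up to 4 genes called in the average SCF response were named by smallest p, and the 3 closest profiles for each responding ETS gene. The genes and lists were chosen with earlier results of these data known.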

Additional observations from a re-analysis of the deposited data

How the results depend on the processing

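The average SCF response of ETS2 kept its call in 20 of 20 alternative settings and that of ERF in 19 of 20. The called log2 fold changes of single genes kept their sign in all 82 alternative values, while 139 of the 910 alternative values of those not called changed sign. Within guide groups, where 1 of the 8 genes was called in each, 2 were called with DESeq2, with the replicate block, with a term for replicate 1, with replicates 2 and 3 only, and with that term and the library labelled sgEGR1 SCF replicate 3 left out. Fitting only the libraries compared called 0 in sgEGR1. Leaving out single libraries gave 0 to 1 called genes in sgControl, 0 to 1 in sgEGR1 and 1 to 2 for the average response. The cause of these shifts was not tested, beyond the smaller number of samples when a library is left out.

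With the replicate block, ERF had an edgeR adjusted p of 4.7e-05 in sgControl and 4.66e-05 in sgEGR1. Between treatments same-numbered libraries correlated at 0.00766 to 0.272 in sgControl and at 0.062 to 0.23 in sgEGR1. The highest value of each guide was that of replicate 1, and what its libraries share was not tested. For replicates 2 and 3 the values were 0.00766 and 0.108 in sgControl and 0.0749 and 0.062 in sgEGR1, so pairing by number was unclear there. The block called 1184 genes in sgControl (448 without it), 1235 in sgEGR1 (402) and 2799 for the average (1399). Between guides the block called 2 genes after PBS and 2 after SCF, none of them an ETS gene, and changed no other call there. DESeq2 called 759 genes in sgControl and 773 in sgEGR1, and 20 after PBS, 5 after SCF and 4 in the interaction, where edgeR called 0. Over all settings, genes called ranged from 192 (only the libraries compared) to 1289 (term for replicate 1) in sgControl, from 176 (without sgEGR1 PBS replicate 2) to 1326 (term for replicate 1) in sgEGR1 and from 1032 (without sgEGR1 PBS replicate 3) to 2868 (term for replicate 1) for the average. Between guides they reached 51 after PBS and 38 after SCF, both with the term for replicate 1 and the library labelled sgEGR1 SCF replicate 3 left out. Lengths of the longest transcript in place of all exons moved levels per kb by more than 1 SD for 6 genes. The average and the interaction use all libraries, so no fit of only the libraries compared exists for them. ETS1 and FLI1 were not tested at these counts.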
